A study of Mus musculus with 18 samples.

Results

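The genes described here are those at which livers of mice given both carbon tetrachloride (CCl4) and Pien Tze Huang stood apart from livers of healthy mice and from livers of mice given CCl4 alone. A gene was taken when the values of all 6 treated livers lay above, or all 6 lay below, every value of the 12 other livers. Of 54752 genes in the deposited count table, 21914 had enough counts to be tested, and 56 of these met that rule, 35 above and 21 below. Pien Tze Huang is a patented remedy of traditional Chinese medicine, and PTH in the group names abbreviates it rather than the parathyroid hormone.

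Livers of 18 male C57BL/6 mice were sequenced, with 1 library for each mouse and 6 mice in each of 3 groups. Control mice had corn oil injected into the peritoneum, 10 µl per g body weight, 2 times a week, and drank double distilled water given by mouth every day. Cirrhosis mice had the same volume and schedule of injections with 10% CCl4 in corn oil, together with the water. Cirrhosis-PTH mice had the CCl4 injections and, by mouth every day, PTH at 0.25 mg per g from a 50 mg/ml solution. Livers were taken after 12 weeks from mice bought at 6 weeks of age. No group had PTH without CCl4, so an effect of PTH itself and an effect that needs the injured liver cannot be told apart. CCl4 is made toxic by cytochrome P450 enzymes of the hepatocytes around the central vein. Repeated doses kill these cells, drive stellate cells to lay down collagen and end in cirrhosis, a liver divided by scar. The hepatocyte is also a secretory cell, which folds and glycosylates most plasma proteins in its endoplasmic reticulum (ER), and it is the main site at which vitamin A is taken up and retinoic acid is destroyed.

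Counts outside loci that collect ribosomal RNA reads ran from 24.5 M to 67.5 M per library in Control, from 47.5 M to 63.9 M in Cirrhosis and from 42.6 M to 58.3 M in Cirrhosis-PTH. Alb, the albumin gene and the defining product of hepatocytes, had a mean level of 35064 CPM (TMM-scaled counts per M counts) in Control, 25878 CPM in Cirrhosis and 29149 CPM in Cirrhosis-PTH. All levels below are CPM on this scale and all changes are log2 with their standard error (SE). The midpoint is the mean of the Control and Cirrhosis group means on the log2 scale of the fitted model. Adjusted p-values are from edgeR's quasi-likelihood test over all 21914 genes. Since the libraries that chose the genes also enter that test, its adjusted p describes the genes and is no independent evidence for them.

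Few genes lay outside the range of the other groups in Cirrhosis-PTH. The 35 genes above were 0.16% of those tested and the 21 below were 0.0958%, together 0.256%. By the same rule, Control lay outside the other groups at 782 genes (3.57%) and Cirrhosis at 4006 genes (18.3%). The contrast of Cirrhosis-PTH with the midpoint was past the threshold at 2003 genes on the higher side (9.14%) and at 1262 on the lower side (5.76%). Of those, 1022 and 434 had a Cirrhosis-PTH mean between the other group means, so the contrast alone does not place a gene outside the range. Against both groups at once, with adjusted p under 0.05 in each pairwise comparison, 84 genes were higher (0.383%) and 69 lower (0.315%). Among the 35 genes above, 34 passed the contrast and 25 passed both pairwise comparisons, and among the 21 below these numbers were 21 and 16. Those comparisons share the Cirrhosis-PTH libraries, so passing both is not 2 independent results. Alone, the comparison with Control called 1389 genes higher (6.34%) and 543 lower (2.48%), that with Cirrhosis called 4396 higher (20.1%) and 4068 lower (18.6%), and Cirrhosis itself was higher than Control at 5591 genes (25.5%) and lower at 5482 (25%).

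**Figure D1:**
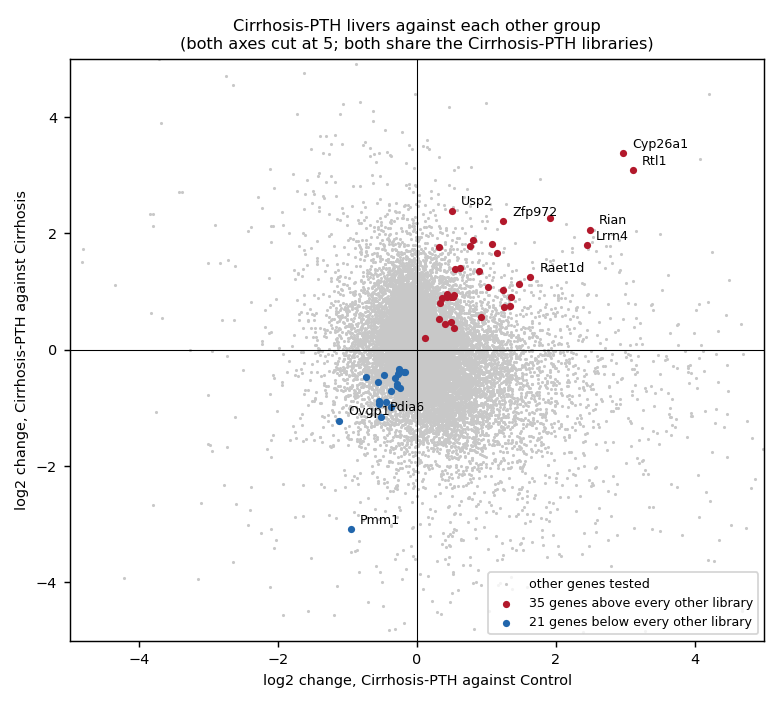
Each point is 1 of the 21914 genes tested, with the log2 change of Cirrhosis-PTH against Control on the x axis and against Cirrhosis on the y axis, and genes beyond 5 on either axis are not drawn. The 35 genes above every other library (red) lie in the upper right, with Cyp26a1 and Rtl1 near 3 on both axes, and the 21 genes below (blue) lie in the lower left, most within 1 of zero and Pmm1 at -3.08 against Cirrhosis.

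The distance by which the Cirrhosis-PTH livers cleared the others was mostly small. The median gap, the nearest Cirrhosis-PTH value over the nearest other value, was 1.09-fold for the genes above and 1.05-fold for the genes below. It reached 1.2-fold in 8 genes above and 1 below, and 1.5-fold only in Cyp26a1 (3.07-fold) and Rtl1 (1.94-fold). Fam205a1 just met the rule, with a lowest Cirrhosis-PTH value of 0.916 CPM over a highest other value of 0.915 CPM, as did Parp6 (9.40 over 9.37) and the translation elongation factor gene Eef2 (984 over 980). The monooxygenase gene Fmo5 just missed it (452.6 against 453.2 CPM), as did Man2a1 (361.7 against 363.4) and Gm5524 (11.77 against 11.83). On the low side Uso1 (58.08 CPM under 58.09), Pold3 and Tmem258 just met the rule, while H13, Sec31a and Cyr61 just missed it. Leaving out Control replicate 6 gave 60 genes above and 44 below, leaving out Cirrhosis-PTH replicate 2 gave 58 and 41, and leaving out Control replicate 1 gave 36 below. The rule is easier to meet with 1 library fewer, so part of each rise follows from the rule itself.

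**Figure D2:**
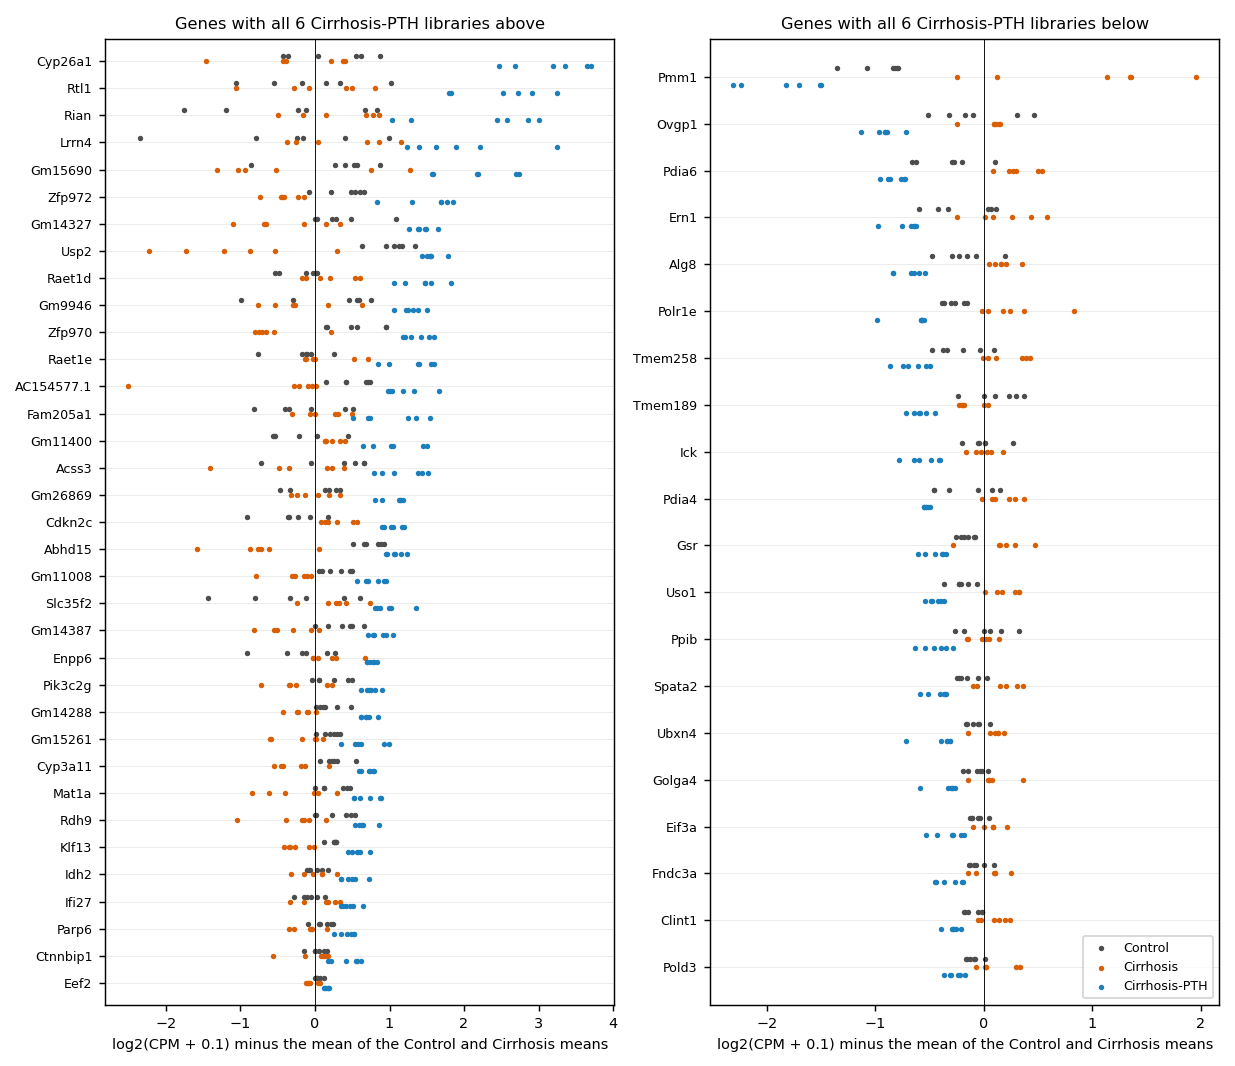
Rows are the 35 genes above (left) and 20 of the 21 below (right), with 1 point for each library, placed by log2(CPM + 0.1) minus the mean of the Control and Cirrhosis means. The blue Cirrhosis-PTH points clear all others in every row, widely for Cyp26a1 at the top left and by less than the size of a point for Eef2 and Pold3 at the bottom.

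Cyp26a1, a gene of retinoid metabolism, had the largest contrast on the high side. It encodes the cytochrome P450 that oxidises and so clears retinoic acid, and retinoic acid receptors are known to switch the gene on. Its level ran from 17.5 CPM over a median of 30.8 to 41.4 CPM in the Cirrhosis-PTH livers. Control livers ran from 2.27 over 3.88 to 5.72 CPM and Cirrhosis livers from 1.06 over 2.96 to 4.09 CPM. Every treated liver thus held at least 3.07 times the level of the highest other liver, while the Control and Cirrhosis livers overlapped. The fitted level was 7.83-fold that of Control (log2 2.97 ± 0.34, adjusted p = 4.6e-05) and 10.4-fold that of Cirrhosis (3.38 ± 0.34, adjusted p = 6.2e-07), and against the midpoint the change was 3.17 ± 0.26 (adjusted p = 2.7e-06).

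The promoter of Cyp26a1 is printed because it holds the letters of a retinoic acid response element, the kind of site that retinoic acid receptors bind. RefSeq places it at chr19:37697558-37697857 on the plus strand of GRCm38.p6, from 250 bases before to 50 bases after the start of transcription. The search was for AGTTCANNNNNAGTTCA, a direct repeat spaced by 5 bases, on both strands. Capitals mark the bases of the match, which is on the minus strand, 32 to 16 bases before the start.
Cyp26a1 promoter: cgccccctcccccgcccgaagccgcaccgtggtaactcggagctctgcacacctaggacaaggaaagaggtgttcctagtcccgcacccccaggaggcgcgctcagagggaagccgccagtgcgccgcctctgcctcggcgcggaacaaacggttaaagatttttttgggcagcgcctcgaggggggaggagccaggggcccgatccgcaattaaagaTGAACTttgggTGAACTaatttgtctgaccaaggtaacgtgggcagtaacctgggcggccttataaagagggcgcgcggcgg
Among 32851 such RefSeq windows of 27025 genes, 8 hold this motif (0.0244%). Only 1 exact form of the element was searched, with the letters and spacing that the Cyp26a1 window holds. The match in Cyp26a1 and the low share thus turn on that choice of letters and are no evidence about the 56 genes. The share therefore does not tell how many windows hold a retinoic acid response element of another form. Of the 56 genes, 37 have a window, and Cyp26a1 is the 1 with a match. A match of letters describes the window and does not show that a receptor sat there.

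No other retinoid gene tested had a change of that size. Rdh9, a retinol dehydrogenase of the same list, met the rule with 54.6 to 68.0 CPM in Cirrhosis-PTH (median 57.9), against 37.6 to 54.2 in Control (median 47.2) and 18.1 to 41.6 in Cirrhosis (median 33.5). Its highest Control liver came within 1.01-fold of the lowest treated liver, and its change was 0.62 ± 0.12 against the midpoint (adjusted p = 0.0018) and 0.35 ± 0.14 against Control (adjusted p = 0.14). Rdh9 shares exonic sequence with Rdh16f1 in the annotation. Cyp26c1, the neighbour and sister enzyme of Cyp26a1, was 1.09 ± 0.31 CPM in Cirrhosis-PTH against 0.447 ± 0.28 in Control and 0.395 ± 0.22 in Cirrhosis (SD, n = 6), a change of 1.38 ± 0.34 (adjusted p = 0.0079). The third sister, Cyp26b1, was 12.9 ± 2.48 CPM against 7.86 ± 5.95 and 10.8 ± 3.62 (0.48 ± 0.36, adjusted p = 0.44). Rarb, a receptor gene that retinoic acid is known to induce, had a contrast of 0.03 ± 0.15 (adjusted p = 0.94). Dhrs3, a retinal reductase gene also known to be induced, had a contrast of 0.32 ± 0.07 (adjusted p = 0.0061), with a mean of 64.8 CPM between those of Control (71.2) and Cirrhosis (37.9). Of 40 tested genes of retinoid metabolism and its receptors, the contrast called 12 higher and 3 lower, with a median of 0.22. Over all genes tested it called 9.14% higher and 5.76% lower, with a median of 0.03. Only Cyp26a1 of these 40 was higher by both pairwise comparisons. This list was added after the values were seen, so its counts only describe it.

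**Figure D3:**
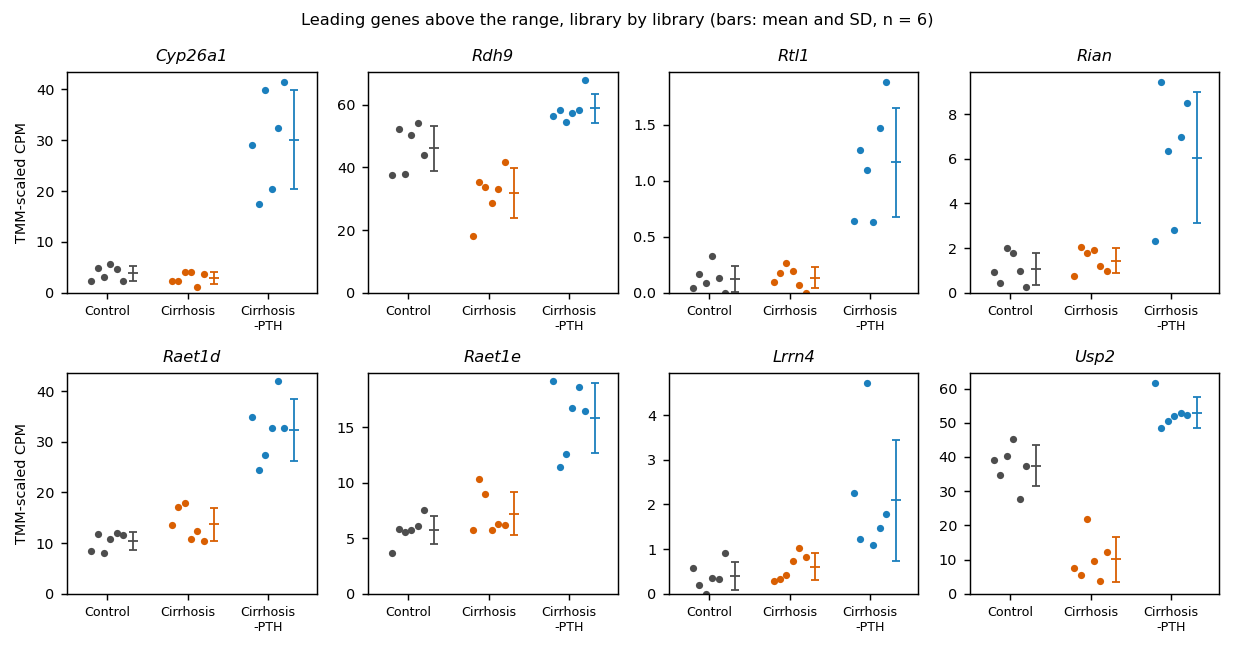
TMM-scaled CPM of 8 genes above the range, with 1 point for each library, and the mean and SD of each group of 6 at its right. Cyp26a1 and Rtl1 leave a clear space between the treated livers and the rest, Rdh9 and Usp2 lie just over the Control livers, and the Lrrn4 mean is pulled up by 1 liver at 4.71 CPM.

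Rtl1 and Rian of the imprinted Dlk1 to Dio3 region of chromosome 12 also met the rule. In this region the maternal chromosome makes the noncoding RNAs Meg3, Rian and Mirg, which carry many small nucleolar RNAs and microRNAs, and the paternal chromosome makes Dlk1, Rtl1 and Dio3. Rtl1 (GRCm38 chromosome 12, 109589193 to 109600330, minus strand), a gene derived from a retrotransposon, was 0.629 to 1.88 CPM in Cirrhosis-PTH with a median of 1.19. In Control it was 0 to 0.324 CPM (median 0.108) and in Cirrhosis 0 to 0.266 CPM (median 0.138). It was 8.63-fold higher than in Control (3.11 ± 0.63, adjusted p = 0.0031) and 8.52-fold higher than in Cirrhosis (3.09 ± 0.61, adjusted p = 0.00034). Between Cirrhosis and Control the test called no difference (0.02, adjusted p = 0.98).

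Rian (109603940 to 109661716, plus strand) is a long noncoding RNA (lncRNA) that hosts small nucleolar RNAs. It ran from 2.33 CPM over 6.65 to 9.43 CPM in Cirrhosis-PTH, from 0.249 over 0.953 to 1.997 in Control and from 0.739 over 1.501 to 2.04 in Cirrhosis. Replicates 1 and 4 were the lowest treated livers in both Rtl1 and Rian. Meg3, the lncRNA at the head of the maternal transcripts, missed the rule but was higher by both tests, at 10.5 ± 5.15 CPM against 1.88 ± 0.85 in Control and 3.18 ± 1.37 in Cirrhosis (2.46, adjusted p = 0.0013, and 1.73, adjusted p = 0.0025). Mirg was 0.912 ± 0.45 CPM against 0.234 ± 0.12 and 0.555 ± 0.41, and passed against Control alone (1.99, adjusted p = 0.013, beside 0.71, adjusted p = 0.24 against Cirrhosis). Of 117 genes in the table from Dlk1 to Dio3, only 9 had enough counts to be tested. Of these 9, 5 were higher by the contrast and none lower, beside 9.14% called higher over all genes tested. The interval was added after the values were seen. Genes this low can also pass the filter through the treated livers alone, so the count only describes the interval. Rtl1 overlaps 7 microRNA genes, 6 of them on the other strand. The strand setting of the counting is not given in the sources used here, so reads of Rtl1 and of a transcript running against it cannot be told apart.

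Raet1d and Raet1e encode ligands of NKG2D, a receptor by which natural killer and T cells recognise stressed cells. Raet1d was 24.5 to 41.9 CPM (median 32.8) in Cirrhosis-PTH, 8.06 to 12.0 (median 11.2) in Control and 10.5 to 18.0 (median 12.9) in Cirrhosis. The lowest treated liver was 1.37 times the highest other liver. The change was 1.63 ± 0.15 against Control (adjusted p = 4.6e-06) and 1.24 ± 0.15 against Cirrhosis (adjusted p = 1.7e-06). Raet1e was 11.4 to 19.1 CPM (median 16.6) against 3.64 to 7.51 (median 5.77) and 5.70 to 10.4 (median 6.22), or 2.77-fold and 2.19-fold higher.

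These genes are close copies whose exons overlap in the annotation, so how reads were divided between them is uncertain. Their RefSeq promoters (for Raet1e the window more like that of Raet1d), at chr10:22361644-22361943 for Raet1d and chr10:22173247-22173546 for Raet1e, both on the plus strand of GRCm38.p6, are shown to make the likeness visible. In an alignment of 302 columns they share 295 bases (97.7%), and capitals mark the bases without an identical partner.
Raet1d promoter: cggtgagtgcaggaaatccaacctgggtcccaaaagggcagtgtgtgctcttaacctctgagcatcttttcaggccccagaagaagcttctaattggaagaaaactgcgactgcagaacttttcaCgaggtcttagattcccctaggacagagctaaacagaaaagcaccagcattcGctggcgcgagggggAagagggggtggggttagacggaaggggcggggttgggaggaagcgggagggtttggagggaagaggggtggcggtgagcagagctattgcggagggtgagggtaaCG
Raet1e promoter: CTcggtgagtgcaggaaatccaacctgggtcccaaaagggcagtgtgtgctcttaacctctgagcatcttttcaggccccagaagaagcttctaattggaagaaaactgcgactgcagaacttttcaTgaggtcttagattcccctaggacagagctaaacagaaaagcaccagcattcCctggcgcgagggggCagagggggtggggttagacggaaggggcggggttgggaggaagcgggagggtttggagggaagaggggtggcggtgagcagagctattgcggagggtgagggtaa
Of 6 tested genes of this system, the contrast called 2 higher and 0 lower, and these were the 2. Over all genes tested it called 9.14% higher and 5.76% lower. The list was added after the values were seen, so its counts only describe it. The ligand genes Ulbp1 (-0.06 ± 0.23, adjusted p = 0.91) and H60b (-0.21 ± 0.41, adjusted p = 0.81) and the receptor gene Klrk1 (-0.05 ± 0.17, adjusted p = 0.90) did not pass the contrast. Exons of H60b overlap those of Raet1e on the same strand, so how reads were divided between H60b and Raet1e is uncertain too. Klrk1 was 1.39 ± 0.29 CPM in Cirrhosis-PTH, 1.32 ± 0.21 in Control and 1.56 ± 0.39 in Cirrhosis.

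A region of distal chromosome 2 that holds many zinc finger genes supplied 7 of the 35 genes above, among them 2 annotated as lincRNA genes (Gm11008 and Gm26869) and 1 as an unprocessed pseudogene (Gm14387). Zinc finger genes of this kind encode DNA-binding proteins with a KRAB domain, many of which repress retrotransposons, and they multiply by local duplication. The 7 lie between 175086501 and 178028736 and are Gm14387, Gm14288, Gm11008, Zfp970, Gm14327, Zfp972 and Gm26869. Zfp970 ran from 23.1 CPM over 26.2 to 31.1 CPM in Cirrhosis-PTH, from 11.3 over 14.7 to 19.7 in Control and from 5.75 over 6.28 to 11.9 in Cirrhosis. Zfp972 was 1.01 to 2.15 CPM (median 1.92) against 0.491 to 0.881 (median 0.787) and 0.275 to 0.463 (median 0.363). In both genes the Cirrhosis livers were also below the Control livers by the test (-1.09, adjusted p = 3.6e-05, and -0.96, adjusted p = 0.0011). Their change against Control was 0.80 ± 0.17 (adjusted p = 0.0062) for Zfp970 and 1.24 ± 0.22 (adjusted p = 0.00091) for Zfp972.

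The contrast of the 7 genes ran from 0.71 in Gm14288 to 1.73 in Zfp972, and other genes of the region did not all follow. Gm26869, an lncRNA gene at its far end, was 5.52 to 7.16 CPM in the treated livers and 2.22 to 3.97 in the 12 others, with no difference called between Cirrhosis and Control (-0.07, adjusted p = 0.75). Of 48 tested genes in the interval, the contrast called 14 higher and 0 lower, beside 9.14% and 5.76% over all genes tested. Of these 48, 20 were higher than in Cirrhosis and 5 than in Control, beside 20.1% and 6.34% over all genes. None was lower than either, and the median change against Control was 0.06. The plot of changes along the interval shows the 7 genes and the others side by side over its whole length. The ends of the interval were set by the genes that met the rule, so these counts only describe it. The 3 RefSeq promoters of genes above in the region resemble each other without being copies, with 83.2% identity between Gm14288 and Zfp970 and 71.1% between Zfp970 and Zfp972. Reads that fit several of these genes could have been divided among them in ways the sources do not give.

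**Figure D4:**
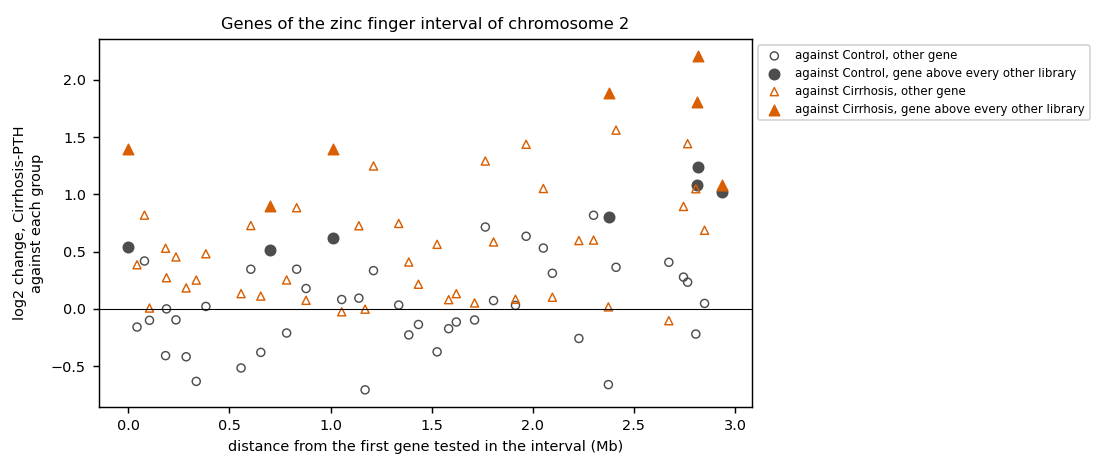
Each gene tested in the interval has a circle for its log2 change against Control and a triangle for its change against Cirrhosis, at its distance in Mb from the first gene of the interval, and filled symbols are the 7 genes above every other library. Filled symbols lie among open ones along the interval, and most circles of other genes scatter around 0 while most triangles lie above it.

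Lrrn4 is a marker of the mesothelium, the cell layer that covers the liver capsule. It was 1.10 to 4.71 CPM (median 1.63) in Cirrhosis-PTH, 0 to 0.915 (median 0.343) in Control and 0.292 to 1.03 (median 0.573) in Cirrhosis. Its change was 2.45 ± 0.57 against Control (adjusted p = 0.010) and 1.80 ± 0.54 against Cirrhosis (adjusted p = 0.012). Of 12 mesothelial genes tested, 11 were higher by the contrast, with a median of 2.11, beside 9.14% called higher over all genes tested. Higher than Control were 8 and higher than Cirrhosis 4, beside 6.34% and 20.1% over all genes tested. By both pairwise comparisons 3 were higher, beside 0.383% over all genes. The cell surface protein gene Msln was 3.24 ± 1.88 CPM against 0.519 ± 0.46 in Control and 0.943 ± 0.80 in Cirrhosis, while the transcription factor gene Wt1 was 3.85 ± 2.22 against 0.757 ± 0.55 and 4.17 ± 1.28. The summed level of the 12 genes was 17.2 to 85.0 CPM in Cirrhosis-PTH, 2.63 to 15.7 in Control and 7.31 to 31.3 in Cirrhosis, so it overlapped between the CCl4 groups. None of the 12 was at 0 in every library of a group. More mesothelial cells in the piece of liver sampled and more RNA of these genes per cell cannot be told apart in bulk tissue, for Lrrn4 or for any other gene described here.

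Several genes of hepatocyte metabolism met the rule with small steps over Control and larger ones over Cirrhosis. Cyp3a11, the main drug-metabolising P450 of its family and a target of the receptor PXR, was 3102 to 3568 CPM (median 3418) in Cirrhosis-PTH, 2151 to 3030 (median 2437) in Control and 1405 to 2338 (median 1668) in Cirrhosis. It was 1.35-fold higher than in Control (0.44 ± 0.11, adjusted p = 0.018) and 1.93-fold higher than in Cirrhosis (0.95 ± 0.11, adjusted p = 1.1e-06). It was the 1 gene to meet the rule among 43 tested targets of CAR and PXR. Of these the contrast called 14 higher and 2 lower, beside 9.14% and 5.76% over all genes tested. Mat1a, which makes the methyl donor S-adenosylmethionine in liver, was 2305 to 2964 CPM (median 2551) against 1607 to 2213 (median 1913) and 896 to 1964 (median 1404). Its step over Control did not pass (0.44 ± 0.15, adjusted p = 0.084). The summed level of 20 hepatocyte identity genes had a median of 73467 CPM among Control livers, 53648 CPM among Cirrhosis livers and 63752 CPM among treated livers, and the part of hepatocyte content in these levels was not tested.

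Idh2, the mitochondrial isocitrate dehydrogenase that makes NADPH, differed by the same amount from both groups. It ran from 70.4 CPM over 76.4 to 91.7 CPM in Cirrhosis-PTH, from 51.2 over 54.4 to 62.4 in Control and from 44.0 over 56.3 to 67.9 in Cirrhosis, or 0.48 ± 0.09 against each (adjusted p = 0.0017 and 0.00019). Acss3, a propionyl-CoA synthetase of mitochondria, was 14.8 to 24.5 CPM against 5.11 to 13.5 and 3.14 to 11.2, and did not pass against Control (0.90 ± 0.27, adjusted p = 0.051). Pik3c2g, a lipid kinase of hepatocytes, was 16.7 to 20.2 CPM against 10.5 to 15.3 and 6.505 to 12.6. Klf13, a zinc finger transcription factor, was 80.4 to 99.3 CPM against 64.5 to 72.1 and 44.7 to 58.7 (0.33 ± 0.07 and 0.81 ± 0.07, adjusted p = 0.0047 and 2.4e-08). Enpp6, a choline phosphodiesterase, was 4.12 to 4.52 CPM against 1.28 to 3.05 and 2.45 to 4.04.

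Usp2, a ubiquitin protease gene and output of the circadian clock, stood far over Cirrhosis and just over Control. It was 48.5 to 61.7 CPM (median 52.2) in Cirrhosis-PTH, 27.8 to 45.3 (median 38.3) in Control and 3.75 to 21.9 (median 8.66) in Cirrhosis. It was 5.24-fold higher than in Cirrhosis (2.39 ± 0.32, adjusted p = 1.4e-05), and its change against Control did not pass (0.50 ± 0.30, adjusted p = 0.35). Of 26 clock genes tested, 12 were higher and 3 lower by the contrast, beside 9.14% and 5.76% over all genes tested. Per1, a light-responsive clock repressor, was the 1 of the 26 higher by both pairwise tests (41.7 ± 6.23 CPM against 26.3 ± 7.02 and 25.0 ± 6.35). The hour at which livers were taken is not given in the sources used here, and its part in these levels was not tested. Abhd15, which restrains lipolysis in fat cells, was likewise 35.4 to 43.0 CPM against 26.1 to 34.6 and 6.05 to 18.9, with a change against Control that did not pass (0.32 ± 0.17, adjusted p = 0.27).

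Cdkn2c encodes p18, an inhibitor of the cyclin-dependent kinases CDK4 and CDK6. It was 5.78 to 7.13 CPM (median 6.38) in Cirrhosis-PTH, 1.58 to 3.46 (median 2.49) in Control and 3.26 to 4.55 (median 3.62) in Cirrhosis. Cirrhosis was also above Control (0.58, adjusted p = 0.0025), and the treated livers were 2.53-fold above Control (adjusted p = 1.2e-05) and 1.69-fold above Cirrhosis (adjusted p = 0.00026). Cdkn2c and Raet1d were the 2 genes above at which Cirrhosis was called higher than Control, whereas Cirrhosis was called lower at 14 of the 35. Other genes above were Ifi27, an interferon-stimulated gene of the mitochondrial membrane (33.8 to 41.6 CPM against 21.8 to 28.9 and 20.9 to 33.5), Ctnnbip1, an inhibitor of beta-catenin (7.63 to 10.4 CPM against 6.07 to 7.51 and 4.54 to 7.59), and Slc35f2, a solute carrier gene (1.43 to 2.15 CPM against 0.223 to 1.23 and 0.640 to 1.37). Ifi27 was the only gene to meet the rule among 48 interferon-stimulated genes. The contrast called 5 of the 48 higher and 0 lower, a share near the 9.14% called higher over all genes. Of the 48, 13 were higher and 0 lower than in Control, and 4 were higher and 18 lower than in Cirrhosis. Over all genes tested, 6.34% were higher than in Control, and 20.1% higher and 18.6% lower than in Cirrhosis. Eef2, at 984 to 1031 CPM against 898 to 980 and 831 to 948, met the rule without passing the contrast (0.16 ± 0.05, adjusted p = 0.054). Fam205a1 (0.916 to 1.97 CPM against 0.305 to 0.915 and 0.477 to 0.907) and Parp6, a mono-ADP-ribosyltransferase gene (9.40 to 11.4 CPM against 7.37 to 9.37 and 6.18 to 8.79), passed both pairwise comparisons despite their narrow gaps.

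Among lncRNA genes above, Rian was followed by Gm15690 and Gm9946. Gm15690 lies antisense to Sds, the serine dehydratase gene, and was 3.52 to 8.004 CPM in Cirrhosis-PTH, 0.573 to 2.13 in Control and 0.390 to 2.86 in Cirrhosis (2.09 ± 0.36 against the midpoint, adjusted p = 0.00089). Without a known strand its reads cannot be told apart from reads of Sds. Gm9946, an intergenic lncRNA gene on chromosome 6, was 0.771 to 1.08 CPM against 0.110 to 0.598 and 0.145 to 0.543 (1.41 ± 0.29, adjusted p = 0.0023). Gm15261, annotated as antisense, was 1.92 to 3.08 CPM against 1.51 to 1.91 and 0.953 to 1.61 (0.70 ± 0.14, adjusted p = 0.0020). AC154577.1 was 1.02 to 1.70 CPM against 0.529 to 0.846 and 0 to 0.473 (1.27 ± 0.36, adjusted p = 0.021), and without Cirrhosis-PTH replicate 5 its contrast of 1.16 did not pass (adjusted p = 0.064). All 7 lncRNA genes of the 56 lay above and none below. The processed pseudogene Gm11400 was 3.20 to 5.85 CPM against 1.32 to 2.74 and 2.203 to 2.68 (1.13 ± 0.16, adjusted p = 0.00011), and its reads may come from its parent gene.

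Several genes of the secretory pathway lay on the low side. Proteins entering the ER are folded by chaperones and by disulfide isomerases, and they receive a ready-made sugar chain from the oligosaccharyltransferase. When unfolded protein builds up, the sensors encoded by Ern1 (IRE1), Atf6 and Eif2ak3 raise the genes of this machinery. Pdia6, a disulfide isomerase, was 55.5 to 65.2 CPM (median 61.6) in Cirrhosis-PTH, 68.4 to 116 (median 89.1) in Control and 115 to 157 (median 132) in Cirrhosis. All 3 groups were apart except for the highest Control liver, which lay within the Cirrhosis range. The change against Control was -0.52 ± 0.11 (adjusted p = 0.0035) and Cirrhosis was 2.22-fold above them (adjusted p = 5.2e-08).

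Pdia4, another disulfide isomerase, was 115 to 119 CPM (median 116) in Cirrhosis-PTH, 123 to 187 (median 149) in Control and 166 to 217 (median 190) in Cirrhosis. The treated livers spread by an SD of 1.76 CPM, against 28.1 in Control and 19.1 in Cirrhosis. Ern1 was 34.1 to 43.5 CPM (median 42.3) against 44.2 to 72.3 (median 61.1) and 56.6 to 100 (median 75.6), or -0.55 ± 0.13 against Control (adjusted p = 0.012) and -0.93 ± 0.13 against Cirrhosis (adjusted p = 1.2e-05). Ppib, cyclophilin B, an isomerase of proline bonds that helps collagen fold, was 44.8 to 57.1 CPM against 58.0 to 87.3 and 62.7 to 77.0. In Ppib the Control and Cirrhosis livers overlapped and the test called no difference between them (-0.04, adjusted p = 0.71), while the treated livers were lower than each (-0.47 ± 0.09 and -0.43 ± 0.09, adjusted p = 0.0018 and 0.00058).

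Pdia6, Pdia4 and Ern1 belong to a list of ER chaperone and folding genes. Of 31 genes, all of them tested, the contrast called 27 lower and 0 higher, and 29 had a Cirrhosis-PTH mean below both other means. Against Control 8 were lower and against Cirrhosis 28, with 7 lower by both. Over all genes tested, the contrast called 5.76% lower, and 4574 of 21914 had a mean below both other means. The shares lower than Control, than Cirrhosis and than both were 2.48%, 18.6% and 0.315%. The median was -0.47 against the midpoint, -0.27 against Control and -0.71 against Cirrhosis, beside a median of 0.03 against the midpoint over all genes tested. The chaperones Hyou1 (78.7 ± 9.22 CPM against 109 ± 28.2 and 226 ± 37.5), Calr (236 ± 22.8 against 347 ± 102 and 387 ± 33.1) and Dnajb11 (30.9 ± 3.48 against 39.7 ± 6.10 and 51.5 ± 2.58) were lower than each other group without meeting the rule. Hspa5, the chaperone BiP and the best known gene of this response, was 228 ± 18.3 CPM against 275 ± 49.4 in Control and 823 ± 151 in Cirrhosis, and its change against Control did not pass (-0.27, adjusted p = 0.19). Herpud1, which serves the removal of misfolded proteins, had a contrast of 0.02 ± 0.12 (adjusted p = 0.96).

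**Figure D5:**
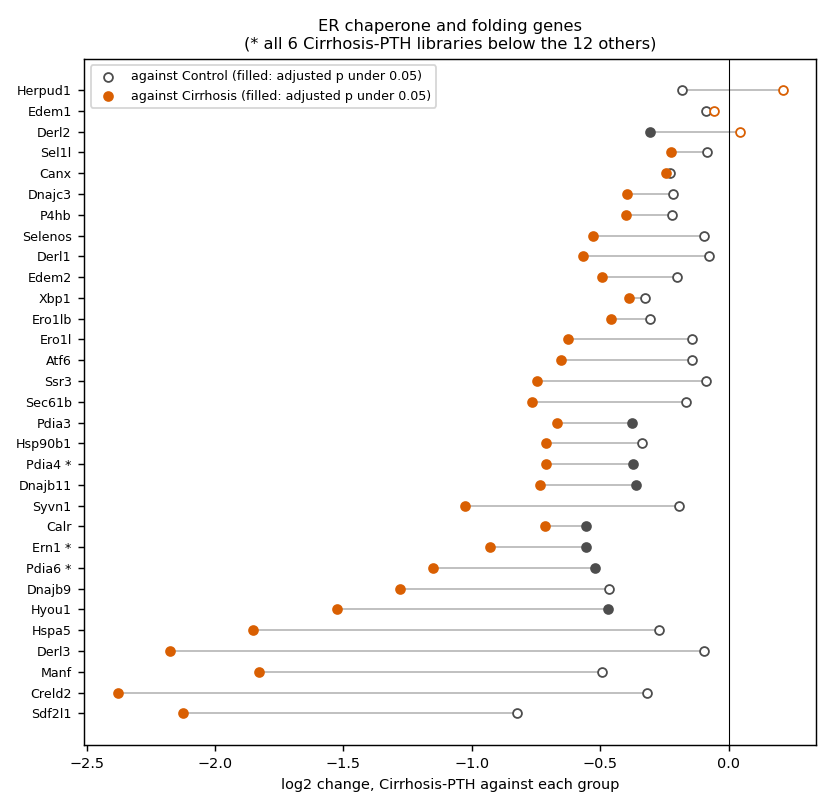
Each row is 1 of 31 ER chaperone and folding genes, with the log2 change of Cirrhosis-PTH against Control (grey) and against Cirrhosis (orange), filled where the adjusted p is under 0.05, and stars mark the 3 genes that met the rule. Grey symbols of all 31 genes lie left of zero, most of them open and within 0.5 of it, and orange symbols reach -2.38 at Creld2.

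The promoter of Pdia6 is printed because it holds the letters of the ER stress response element, the kind of site through which ATF6 and its partner NF-Y act on chaperone genes. RefSeq places it at chr12:17266339-17266638 on the plus strand of GRCm38.p6. The search was for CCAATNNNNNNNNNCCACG on both strands, and capitals mark its bases in the match, 98 to 80 bases before the start.
Pdia6 promoter: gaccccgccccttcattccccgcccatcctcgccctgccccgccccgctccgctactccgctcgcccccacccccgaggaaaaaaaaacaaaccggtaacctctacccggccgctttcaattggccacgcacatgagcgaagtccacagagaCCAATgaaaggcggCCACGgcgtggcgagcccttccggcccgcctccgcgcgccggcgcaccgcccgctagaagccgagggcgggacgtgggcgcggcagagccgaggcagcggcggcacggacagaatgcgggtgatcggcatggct
Of the 32851 windows, 39 hold this motif (0.119%), and Pdia6 is the 1 match among the 37 with a window of the 56 genes. Among genes that missed the rule, only Hspa5 and Creld2 were looked up by name, and both hold it. The genes of the other windows with the motif were not listed, so these names do not show which genes it marks. Pdia4 and Ppib do not hold these exact letters in their windows, from which nothing follows about the factor.

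Genes of N-glycosylation were part of the low side. Alg8 adds a glucose to the growing sugar chain and was 2.12 to 2.64 CPM (median 2.42) in Cirrhosis-PTH, 2.76 to 4.45 (median 3.37) in Control and 4.02 to 4.99 (median 4.34) in Cirrhosis (-0.54 ± 0.12 and -0.88 ± 0.12, adjusted p = 0.0066 and 5.1e-06). Tmem258, a subunit of the oligosaccharyltransferase, was 4.14 to 5.397 CPM against 5.46 to 8.15 and 7.58 to 10.3 (-0.45 ± 0.11 and -0.90 ± 0.11, adjusted p = 0.015 and 2.1e-06). Pmm1, a phosphomannomutase, had the largest change on this side, at 0.539 to 1.02 CPM (median 0.833) against 1.14 to 1.73 (median 1.68) and 2.56 to 12.2 (median 7.42). Its 3 groups did not overlap, with Cirrhosis 8.47-fold above the treated livers (adjusted p = 1.3e-07), and its change against Control was -0.95 ± 0.30 (adjusted p = 0.051). Pmm2, the enzyme that supplies mannose for this pathway, was 29.7 ± 1.76 CPM against 32.4 ± 1.71 and 22.0 ± 2.25, with a contrast of 0.15 ± 0.06 that did not pass (adjusted p = 0.091). Of 37 N-glycosylation genes the contrast called 15 lower and 0 higher, beside 5.76% called lower over all genes tested. The list was added after the values were seen and holds Alg8, Tmem258 and Pmm1, so its counts only describe it. Against Control 5 were lower and 0 higher, while against Cirrhosis 19 were lower and 9 higher. Over all genes tested, 2.48% were lower than in Control, and 18.6% lower and 20.1% higher than in Cirrhosis. By both pairwise comparisons 5 were lower, beside 0.315% over all genes. The oligosaccharyltransferase subunit genes Rpn1 (-0.41 and -0.72, adjusted p = 0.0058 and 1.7e-06) and Krtcap2 (-0.34 and -0.69, adjusted p = 0.036 and 1.1e-05) were among these 5.

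Uso1, Golga4 and Clint1 encode proteins of vesicle traffic, described together here for their known roles and not from a list that was tested. Uso1 (p115), a tether of vesicles at the Golgi, was 51.2 to 58.1 CPM against 58.1 to 71.6 in Control and 75.3 to 93.6 in Cirrhosis (-0.24 ± 0.07 and -0.66 ± 0.07, adjusted p = 0.022 and 1.0e-07). Golga4, a golgin of the trans side, was 44.6 to 56.0 CPM against 58.8 to 69.0 and 60.9 to 86.1. Clint1, a clathrin adaptor, was 35.7 to 40.7 CPM against 41.4 to 46.4 and 45.3 to 55.6, and did not pass against Control (-0.19 ± 0.06, adjusted p = 0.056). Ubxn4, which links the ER membrane to the degradation of misfolded proteins, was 32.3 to 42.8 CPM against 47.3 to 55.3 and 48.1 to 60.4 (-0.32 ± 0.07 and -0.48 ± 0.07, adjusted p = 0.0068 and 1.7e-05).

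The remaining genes below had varied roles. Ovgp1, known as an oviduct glycoprotein, had the widest gap, 1.201-fold, at 0.218 to 0.323 CPM against 0.388 to 0.859 and 0.486 to 0.674 (-1.12 ± 0.24 and -1.22 ± 0.24, adjusted p = 0.0051 and 0.00033). Ick, a kinase of cilia, was 7.02 to 9.15 CPM against 10.5 to 14.6 and 10.8 to 13.8, with equal changes of -0.56 ± 0.09 against each (adjusted p = 0.00038 and 3.0e-05). Tmem189, which makes the vinyl ether bond of plasmalogen lipids, was 4.79 to 5.80 CPM against 6.72 to 10.3 and 6.75 to 8.16, and it was the 1 gene below at which Cirrhosis was called lower than Control (-0.27, adjusted p = 0.029). Gsr, glutathione reductase, was 41.9 to 49.9 CPM against 53.3 to 60.2 and 52.3 to 88.6 (-0.29 ± 0.09 and -0.63 ± 0.09, adjusted p = 0.047 and 7.6e-06). Gsr was the 1 gene to meet the rule among 45 genes of the NRF2 and glutathione list. Of these the contrast called 7 higher and 14 lower, beside 9.14% and 5.76% over all genes tested. Eif3a, a subunit of a translation initiation factor, was 78.9 to 100 CPM against 104 to 118 and 106 to 133, and Fndc3a was 62.5 to 74.9 CPM against 77.7 to 90.8 and 77.0 to 102, both with a contrast of -0.32 ± 0.06 (adjusted p = 0.0011 and 0.0017). Pold3, a subunit of DNA polymerase delta, was 5.99 to 6.87 CPM against 6.89 to 7.78 and 7.35 to 9.78 and did not pass against Control (-0.17, adjusted p = 0.24). Polr1e, a subunit of RNA polymerase I, and Spata2, an adaptor of tumour necrosis factor signalling, passed against Cirrhosis but not against Control (-0.38 ± 0.15, adjusted p = 0.13, and -0.29 ± 0.09, adjusted p = 0.056).

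Across the 56 genes, those below had smaller changes than those above. The median contrast was 1.05 for the genes above and -0.46 for those below, with 47 protein-coding genes in all. At 12 of the 21 genes below, Cirrhosis was called higher than Control, so Cirrhosis-PTH lay on the far side of Control from Cirrhosis, as it did at the 14 genes above at which Cirrhosis was called lower. Cirrhosis and Control differed by the test at 29 of the 56 genes in all. With both directions together, that share is near the one over all genes tested, where Cirrhosis was called higher at 25.5% and lower at 25%. Taken by side, the 12 of 21 genes below and the 14 of 35 above lie over the share of their own direction. The libraries that chose the genes also enter these counts, which only describe them. No difference was called between them in the others of the 56, which include Cyp26a1, Rtl1, Rian, Lrrn4, Idh2, Ick and Ppib. Exons of 19 of the 56 genes overlap another gene in the annotation, among them Rtl1, Rian, Raet1d, Raet1e, Pdia6, Tmem189 and Tmem258, and part of their counts may belong to that gene.

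Since 0.256% of all tested genes met the rule, a short list with none that met it does not stand apart from the rest. No gene of the matrix list (53 tested), of the recruited macrophage list (24) or of the male-biased liver list (26) met the rule. Neither did any gene of the pericentral hepatocyte list (20), where the contrast called 15 higher and 2 lower with a median of -0.20 against Control and 1.25 against Cirrhosis. For the matrix genes the contrast called 5 higher and 7 lower, with a median of 0.96 against Control and -1.03 against Cirrhosis, which places Cirrhosis-PTH between the others. Of 32 genes of the ATF4 stress response, the contrast called 24 lower and 0 higher, yet none met the rule and 2 were lower by both pairwise comparisons. Beside the counts of these lists, the contrast called 9.14% higher and 5.76% lower over all genes tested, and 0.315% were lower by both pairwise comparisons.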

How the data were processed

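Members and gene lists were chosen with earlier results of these data known. Ribosomal RNA was depleted from total liver RNA before sequencing. The deposited table holds raw read counts per gene, which are whole numbers; per the submitters' processing notes, the GRCm38 build was used with Trim Galore, cutadapt 4.2, Bowtie2, Bowtie 1.3.1, StringTie 2.1.5 and HISAT2 2.2.1, in roles and an order not given in the sources used here. Nor are the counter, its strand setting, its handling of multi-mapped reads and the annotation release. Of 54752 genes, 54723 matched GENCODE release M21 for coordinates and overlaps.

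Genes were filtered with filterByExpr, scaled by TMM and fitted with all 18 libraries, 3 group means and no covariate in edgeR 4.0.16 (R 4.3.3), using robust quasi-likelihood tests and Benjamini-Hochberg adjustment at 0.05. No library was dropped. A gene met the rule when its 6 Cirrhosis-PTH CPM values lay all above or all below the 12 others. Genes named by rule were, among those with a highest group mean of at least 1 CPM, a contrast past 0.05 and an established symbol, the 12 on each side with the largest distance outside, taken as the smaller of the changes against Control and Cirrhosis; up to 4 of each list by p; and the 3 lncRNA genes farthest outside per side. Remaining genes that met the rule are given more briefly, except 1 below that is counted but not reported here. Other genes of a list are named after their values were seen.

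Total counts ran from 62.5 M to 112 M per library, and the deposited counts limit precision most at genes under 1 CPM. Each library is labelled as a separate mouse. Same-numbered libraries of different groups did not deviate together and were not paired in the main fit, though a factor shared by them was not excluded. A check for duplicates covered 45 pairs of libraries and found none among them. Alternatives were DESeq2 1.42.0, other scaling, other filters, thinned counts, the rule with a gap, a replicate block and leaving libraries out. Lists of retinoid, NKG2D, N-glycosylation and isomerase genes and the chromosomal intervals were added after the values were seen.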

Additional observations from a re-analysis of the deposited data

Results flagged for a closer look

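In 12 of 168 groups of 6 libraries (7.14%), 1 library lay apart from the others of its group, with a gap to its nearest neighbour that took up most of the group's range (past Dixon's critical value); chance gives about 1 in 20 in groups not chosen by their values, and these genes were chosen by theirs. Among the treated livers, Lrrn4 was 4.71 CPM in Cirrhosis-PTH replicate 3 beside 2.25 CPM in the next liver. Usp2 was 61.7 CPM in replicate 1 beside 52.8, Rdh9 was 68.0 CPM in replicate 6 beside 58.5, and Slc35f2 was 2.15 CPM in replicate 4 beside 1.68. On the low side, Polr1e was 1.29 CPM in replicate 3 beside 1.73, while Ubxn4 (32.3 CPM beside 40.3) and Golga4 (44.6 CPM beside 53.4) both stood apart in replicate 6. In Cirrhosis, Zfp970 was 11.9 CPM in replicate 3 beside 6.89, AC154577.1 was 0 CPM in replicate 5 beside 0.366, and Ovgp1 was 0.486 CPM in replicate 1 beside 0.641. In Control, Gm14327 was 2.59 CPM in replicate 6 beside 1.67 and Klf13 was 64.5 CPM in replicate 7 beside 70.7. In each of these 7 treated groups the library that stood apart lay on the side away from the other groups, a side that the rule favours because a treated library far towards the others would have broken it.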

How the results depend on the processing

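The rule that chose the 56 genes fixed the direction of their contrast, so its sign under the alternatives says nothing about stability. Of 1504 contrast values of these genes under the alternatives, 1499 kept their side of the threshold. AC154577.1 no longer passed without Cirrhosis-PTH replicate 5 (1.16) and with the replicate block (1.41, adjusted p = 0.10), Eef2 passed under 3 alternatives, and 8 genes were not in the fit of genes with at least 1 CPM. The number of genes that met the rule fell to 8 above and 1 below when a gap of 1.2-fold was required, and to 2 and 0 at 1.5-fold. With RLE scaling, 31 of the 35 genes above and 20 of the 21 below met it, and with counts thinned to the lowest depth 27 and 17. Without Control replicates 7 and 8, 33 and 19 of them did, beside 51 and 31 genes in all. Genes lower by both pairwise tests (69) were 44 with no filter on low counts, 34 without Control replicates 7 and 8, 22 with the replicate block and 121 with DESeq2, and genes lower by the contrast (1262) were 810 with the replicate block; the cause was not tested. Same-numbered libraries did not deviate together (14 pairs, r from -0.12 to 0.11), and 1 of 16 libraries correlated best with its own number. Leaving out each library in turn gave 35 to 60 genes above, 22 to 44 below, 52 to 97 higher and 40 to 87 lower by both tests, 1558 to 2300 higher and 863 to 1496 lower by the contrast, 1293 to 2009 called against Control and 7724 to 8604 against Cirrhosis. The rule is easier to meet with fewer libraries, so the higher numbers above and below follow in part from leaving libraries out. By both tests, 52 genes were higher without Cirrhosis-PTH replicate 3, and 40, 43 and 41 were lower without Control replicate 2, Cirrhosis-PTH replicate 3 and Cirrhosis-PTH replicate 6. Genes under 1 CPM, such as Rtl1 in Control, rest on few reads. The p-values set differences between groups against the spread within groups of these 18 mice.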
